A study of Mus musculus with 6 samples.

Results

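The 8 genes described here were grouped as genes of Bowman glands, the glands under the olfactory epithelium whose ducts open on its surface. They are Sox9, a transcription factor gene of gland and duct cells, and 7 genes of gland secretion: Muc5b, Lyz2, Bpifa1, Bpifb3, Obp1a, Obp2a and Pigr. They were chosen by gene symbol, as every probe set that the platform annotation gives to 1 of these symbols, and they are 8 of 18193 genes with such a probe set. The 8 genes have 11 probe sets in all, and 0 further probe sets list a member beside another gene.

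RNA came from olfactory epithelium of CD1 mice, an outbred stock, with no genetic change or treatment named in the labels. Dissociated cells were sorted by flow cytometry into those that bound a FITC-coupled antibody to ICAM1 (CD54) and those that did not. Each of 3 litters gave 1 ICAM1-positive and 1 ICAM1-negative sample, each on its own Affymetrix array, at postnatal day 21 for litter 1, day 22 for litter 2 and day 24 for litter 3. A litter is a pool of animals, and age and litter cannot be told apart. The sorts are mixtures defined by 1 surface protein, so neither is a pure cell type.

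Bowman glands make much of the mucus in which odorants dissolve before they reach the cilia of olfactory neurons. The mucus is a gel of secreted mucins with antimicrobial enzymes, lipid-binding proteins of the BPI fold family and lipocalins that carry small hydrophobic molecules. Antibodies of the IgA class reach it through an epithelial receptor that carries them across the cell. Gland and duct cells are marked by SOX9, and the epithelium above them holds basal cells, neurons and sustentacular cells.

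Values are the deposited linear intensities, which had been scaled to a common level on every array. Median intensity per array was 87.9 to 102.8, and values below it are treated here as low, because the files carry no detection call. The correlation of log2 intensities was 0.934 to 0.944 within a sort and 0.762 to 0.794 between sorts. The sample titles and population labels give the groups used here, while the free-text descriptions name the opposite population. Icam1 was 13, 16.1 and 33.2 in the arrays titled ICAM1-negative and 7247, 6817 and 6857 in those titled ICAM1-positive, which follows the titles and checks the labels.

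Of the 8 genes, 3 rose in ICAM1-positive cells (Sox9, Lyz2 and Bpifa1), 1 fell (Obp2a), 3 did not pass the test (Muc5b, Bpifb3 and Pigr) and 1 was too dim to test (Obp1a). A gene is represented by its brightest probe set that passed the filter on low intensities, and a call is an adjusted p under 0.05 in limma with litter as a block. For comparison, 21.3% of the 16399 genes tested were higher and 22.2% lower in that fit. These shares are also the comparison for the counts of each gene list below. The members' counts are therefore a description of 8 genes, in a comparison in which 43.6% of all genes passed. With 4 arrays in the fit, 1 member was higher without litter 1 or litter 3 and 2 were without litter 2, and 0 were lower in each case. Calls over all 38694 probe sets fell too in these fits, to 2556 to 3101 higher and 2311 to 3022 lower, from 6899 and 7476. Fitted without the litter block, 3 members were higher and 0 lower, and 41.4% of genes and 34.9% of probe sets passed. Over probe sets, 4 of the members' 10 that passed the filter were higher and 1 was lower, beside 17.8% and 19.3% of all 38694 (37.2% in either direction). The median log2 difference of the 7 tested members was 0.34, with a range from -2.23 to 3.29, and that of all genes tested was -0.06. The 3 arrays of 1 sort lay wholly above or below those of the other for 3 of the 7 tested members (Sox9, Lyz2 and Bpifa1) and for 57.9% of all genes. The 10 probe sets are those that passed a filter, so these counts say nothing of Obp1a. They do include probe sets that lay below the array median on most arrays, such as that of Obp2a.

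**Figure D1:**
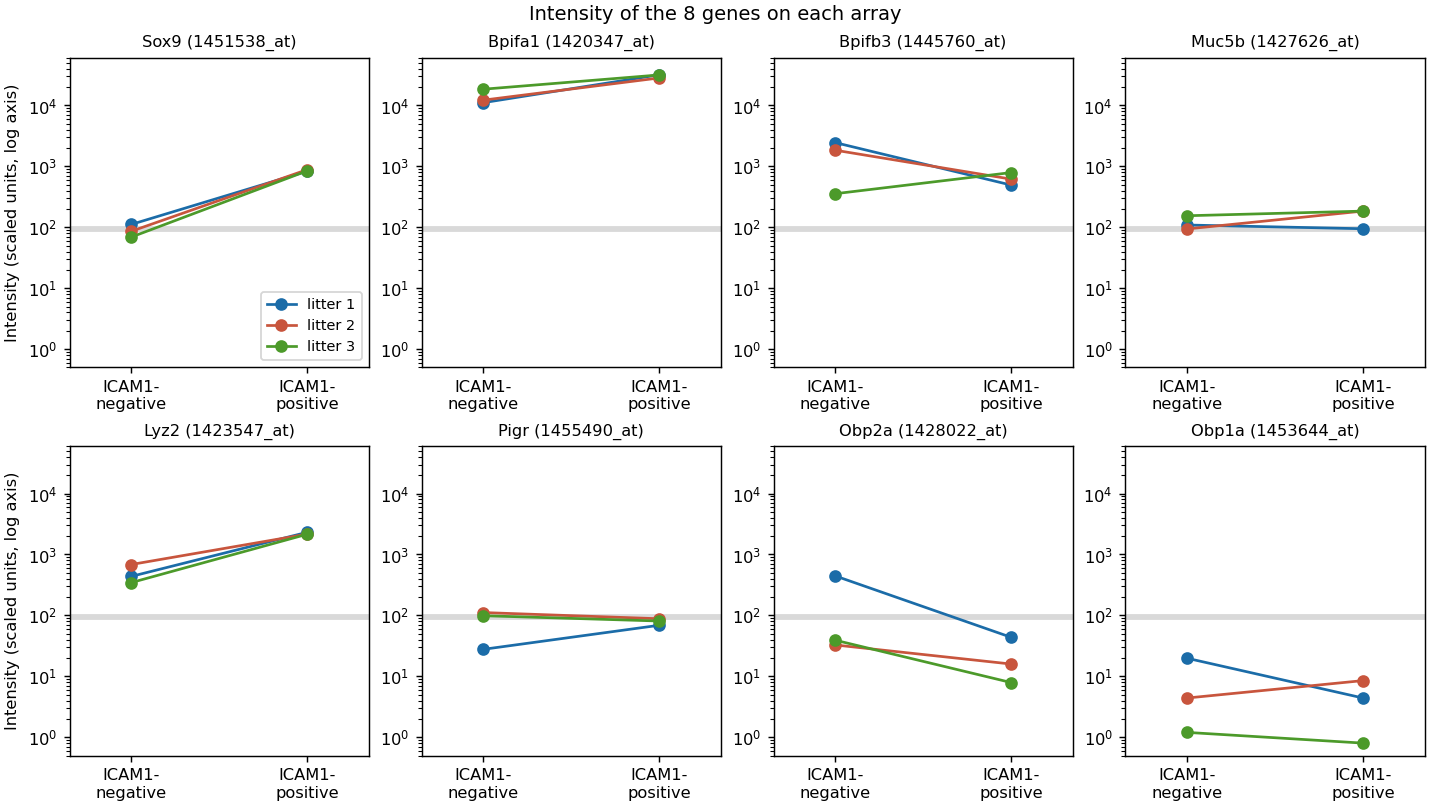
Intensity (scaled units, log axis) of the brightest probe set of each of the 8 genes in ICAM1-negative and ICAM1-positive arrays, with a line joining the 2 arrays of each of the 3 litters; the grey band is the range of the array medians, 87.9 to 102.8. Sox9, Lyz2 and Bpifa1 go up in all 3 litters, Obp2a goes down in all 3, and Bpifb3 goes down in litters 1 and 2 and up in litter 3.

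Sox9 encodes an HMG-box transcription factor that is active in progenitors of many glands and ducts. Its probe set 1451538_at was 111.4, 86 and 69 in ICAM1-negative cells of litters 1, 2 and 3. In ICAM1-positive cells it was 834.7, 884.9 and 844.4. The ICAM1-positive arrays lay close together and far above every ICAM1-negative array. The difference was 2.91, 3.36 and 3.61 on the log2 scale in the 3 litters, with a mean of 3.29 ± 0.20 (standard error of the fit, n = 3 litters; limma adjusted p = 0.00438). A second probe set, 1424950_at, was 83.9, 71.8 and 43.7 against 797.8, 662.5 and 869, and rose by 3.59 ± 0.30 (limma adjusted p = 0.0066). Since its ICAM1-negative values all lay below the array medians, it was at least 7.99-fold higher in ICAM1-positive cells, counting those values as the median. The third, 1433889_at, stayed below the array median on all 6 arrays, at 64.4, 13.8 and 11.9 against 55.7, 43.6 and 76.7, and did not pass (limma adjusted p = 0.19). Sox9 on its first 2 probe sets passed with any single litter left out. In sorted bulk RNA, fewer cells of a type and less RNA per cell cannot be told apart.

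Sox relatives and partner genes of Sox9 gave a mixed picture. Of 9 listed genes on the array 8 were tested. Among these 4 rose and 1 fell, and the median log2 difference was 0.67 against -0.06 for all genes; with any 1 litter left out, 2 to 3 rose. Sox5 and Sox6, which encode partners of SOX9 in cartilage, rose with Sox9. Sox6 went from 37.7 ± 12.5 (SD, n = 3) to 472.1 ± 47.9, at least 4.87-fold, and Sox5 from 14.2 ± 10.8 to 119 ± 16.6, at least 1.23-fold. Sox2, a gene of sustentacular and progenitor cells, rose by 1.96 ± 0.14 on the log2 scale (limma adjusted p = 0.00518). Sox11, a gene of immature neurons, fell by 1.74 ± 0.15 (limma adjusted p = 0.00676). Sox10, the relative of Sox9 that marks serous gland cells and glia, had 3 probe sets. The brightest of them was 139.1, 58.7 and 131.4 in ICAM1-negative cells, against 82, 56.9 and 21.9 in the other sort, and did not pass (limma adjusted p = 0.22). A dimmer Sox10 probe set, 1425369_a_at, was 32.9, 22.7 and 61.6 against 11.8, 9.5 and 13.2 and passed downward (limma adjusted p = 0.0195), with every value below the array median.

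Bpifa1 encodes a small secreted protein of the BPI fold family, abundant in nasal mucus, which binds lipids and has antimicrobial activity. It was 11106, 12231 and 18492 in ICAM1-negative cells. It was 31882, 28304 and 31729 in ICAM1-positive cells. The gene was bright in both sorts, and the groups did not overlap. The log2 difference was 1.52, 1.21 and 0.78 in litters 1, 2 and 3, with a mean of 1.17 ± 0.20 (n = 3 litters; limma adjusted p = 0.0255). The call was lost with any litter left out: adjusted p was 0.107 without litter 1, 0.113 without litter 2 and 0.0575 without litter 3. The highest intensities on the ICAM1-positive arrays were 35347, 31256 and 35599, so these Bpifa1 values lie near the top of the range; the part of this in the size of the difference was not tested.

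The bases before the start of Bpifa1 are shown because it is the brightest member and rose; the capitals mark TATAAA, the TATA box, on the strand shown (RefSeq, GRCm38.p6, chr2:154142630-154142879, plus strand).
Bpifa1: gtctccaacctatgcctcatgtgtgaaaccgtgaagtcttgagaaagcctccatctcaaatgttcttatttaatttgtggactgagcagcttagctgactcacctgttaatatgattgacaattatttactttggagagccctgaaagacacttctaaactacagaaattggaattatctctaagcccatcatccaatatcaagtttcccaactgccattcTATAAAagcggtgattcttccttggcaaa

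In this window the TATAAA began 29 bases before the start. Promoter windows of 250 bases, from RefSeq, were matched for 6 of the 8 members (Sox9 and Muc5b were not matched) and searched on both strands for TATAAA, for AACAAT and ACAAAG, which are cores bound by Sox proteins, and for AGGAAGT, a core bound by ETS proteins. Of 32851 such windows, 12.4% held TATAAA, 9.42% AACAAT, 16.5% ACAAAG and 7.69% AGGAAGT. No hit overlapped another in the members' windows. Of the members that rose with Sox9, neither Bpifa1 nor Lyz2 held AACAAT or ACAAAG in this window. AACAAT was found in that of Pigr and ACAAAG in those of Obp1a and of 1 of 2 listed starts of Bpifb3. A match of letters describes the sequence and does not show binding.

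Bpifb3, which encodes a longer protein of the same family, lies on chromosome 2 with Bpifa1, with 4 protein-coding genes between them, but its values differed in pattern. It was 2461, 1846 and 355.9 in ICAM1-negative cells. In ICAM1-positive cells it was 493.8, 618.4 and 791.6. Litters 1 and 2 were lower in ICAM1-positive cells, with log2 differences of -2.32 and -1.58, whereas litter 3 was higher by 1.15. The groups overlapped, and the mean of -0.91 ± 0.81 did not pass (n = 3 litters; limma adjusted p = 0.434). Without litter 3 the mean was -1.95 (limma adjusted p = 0.0591). A difference of litters in this contrast cannot be tested with 1 array per sort and litter.

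Of 10 other BPI fold genes on the array 8 were tested. Of these 2 rose and 0 fell (median log2 difference 0.84), beside 21.3% and 22.2% of all genes. The pair that rose encode plasma-type lipid binders of the family. Pltp, the phospholipid transfer protein gene, went from 181.4 ± 71.5 to 16081 ± 895 (SD, n = 3) and Lbp, the lipopolysaccharide-binding protein gene, from 212.7 ± 110 to 8068 ± 1392. Their log2 differences were 6.56 ± 0.29 and 5.35 ± 0.28 (limma adjusted p = 0.00406 and 0.00413). With litter 1 left out or a filter at the array median 3 of the list rose, and 4 did when values under the median were set to it. Bpifb1, an airway member, was 70.8, 119.1 and 220 against 111, 203.6 and 273.6 and did not pass (limma adjusted p = 0.0678), although it was higher in 3 of 3 litters. Bpifa2, a salivary member, stayed below the array median on all 6 arrays. Bpifb9b varied widely between litters, at 322.4, 348.8 and 16.4 against 1902, 303.1 and 18.9. It was low in both sorts of litter 3 and did not pass (limma adjusted p = 0.379); it is named here after its values were seen.

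Muc5b encodes the gel-forming mucin of airway and nasal glands. It was 109.1, 94 and 154.8 in ICAM1-negative and 94.7, 184.5 and 184.5 in ICAM1-positive cells. The value lay below the array median in ICAM1-negative cells of litter 2 and ICAM1-positive cells of litter 1 and above it on the other 4 arrays, and the groups overlapped. The mean log2 difference was 0.34 ± 0.29 (n = 3 litters; limma adjusted p = 0.413), with 2 litters higher and 1 lower. Of 11 other mucin genes on the array 9 were tested. Of these 2 rose and 1 fell (median -0.42), beside 21.3% and 22.2% of all genes. With any litter left out, 1 rose. The membrane mucin Muc1 rose from 195.2 ± 27.9 to 708.4 ± 61.8 (SD, n = 3; 1.87 ± 0.15, limma adjusted p = 0.00626). Another membrane mucin, Muc4, rose by 0.82 ± 0.19 (limma adjusted p = 0.0442, or 0.0568 without the litter block). This is from 1438555_x_at, whose suffix x marks probes that can match other transcripts. Its probe sets 1427398_at and 1432119_at were too dim to test. Muc13, also a membrane mucin, fell from 452.5 ± 24.3 to 118 ± 41.8, while its dimmer probe set 1419386_at did not pass (limma adjusted p = 0.0827). The gel-forming Muc2 did not pass (834 ± 507 against 635.6 ± 359; limma adjusted p = 0.297), and Muc5ac stayed below the array median on all 6 arrays.

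Lyz2 encodes the M-type lysozyme, an enzyme that cuts bacterial cell walls and is made by macrophages, neutrophils and some glands. It was 436.3, 684.1 and 345.2 in ICAM1-negative cells. It was 2315, 2161 and 2150 in ICAM1-positive cells, a narrow range that lay above every ICAM1-negative value. The log2 difference was 2.41, 1.66 and 2.64 in the 3 litters, with a mean of 2.24 ± 0.26 (n = 3 litters; limma adjusted p = 0.011). The call was lost without litter 1 (adjusted p = 0.0692) or litter 3 (0.057).

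Lyz1 encodes a close paralog and is the next protein-coding gene to Lyz2 on chromosome 10. The bases before both starts are shown because the genes are neighbours and paralogs; capitals mark AGGAAGT, which reads ACTTCCT on the strand shown, and ACAAAG (RefSeq, GRCm38.p6, minus strand, chr10:117282273-117282522 for Lyz2 and chr10:117292869-117293118 for Lyz1).
Lyz2: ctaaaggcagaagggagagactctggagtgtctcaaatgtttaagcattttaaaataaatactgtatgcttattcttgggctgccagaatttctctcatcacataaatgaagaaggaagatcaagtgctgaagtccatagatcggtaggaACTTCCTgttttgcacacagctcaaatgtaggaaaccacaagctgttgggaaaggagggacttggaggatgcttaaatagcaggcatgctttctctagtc
Lyz1: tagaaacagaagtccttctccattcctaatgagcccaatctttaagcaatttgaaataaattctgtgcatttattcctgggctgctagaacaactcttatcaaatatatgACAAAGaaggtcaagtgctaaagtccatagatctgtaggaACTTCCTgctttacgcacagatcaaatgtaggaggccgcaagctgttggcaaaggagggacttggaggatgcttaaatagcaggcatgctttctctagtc

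Compared without gaps, the windows shared 152 of 250 bases (60.8%), and 92 of the last 100. AGGAAGT lay at the same distance in both, with its first base on the shown strand 100 bases before the start, and Lyz1 held 1 ACAAAG, 140 bases before it. The Lyz1 probe set 1436996_x_at was 1535, 2313 and 1204 against 7096, 6269 and 6986, and rose by 2.06 ± 0.28 (limma adjusted p = 0.0149). A second, 1439426_x_at, was 534.6, 1273 and 305.7 against 5058, 5187 and 4269 and rose as well (limma adjusted p = 0.0158). The suffix x marks probe sets whose probes can match other transcripts, so Lyz1 and Lyz2 may share signal in them. The third Lyz1 probe set, 1450822_at, which lacks that suffix, stayed below the array median on all 6 arrays and did not pass (limma adjusted p = 0.337). Across the 6 arrays the gene nearest to Lyz2 in pattern was Lyz1, with a mean difference of 0.0867 on the log2 scale after centring each gene on its own mean.

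Macrophage markers rose in the same arrays as Lyz2. Of 17 on the array 15 rose and 0 fell (median log2 difference 3.52), and their summed intensity was 1491 to 1996 in ICAM1-negative and 22930 to 29138 in ICAM1-positive arrays. Csf1r, the growth factor receptor gene of these cells, was 169.3 ± 39.4 against 4583 ± 1160 (SD, n = 3), and the complement gene C1qa was 6.37 ± 1.97 against 927.1 ± 435, at least 8.86-fold. The integrin gene Itgam stayed below the array median on all 6 arrays and Fcer1g did not pass (limma adjusted p = 0.0544). Neutrophil markers did not rise: 0 of 10 rose and 5 fell, or 2 without the litter block and 0 to 2 with a litter left out. Their part in the Lyz2 values was not tested.

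**Figure D2:**
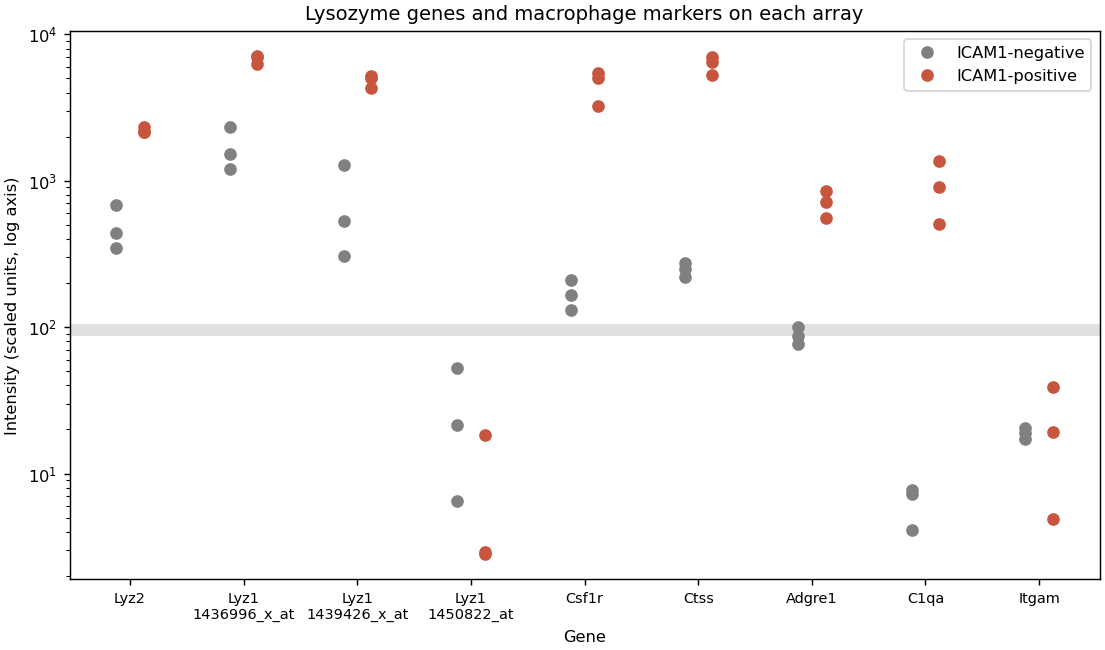
Intensity (scaled units, log axis) of Lyz2, the 3 Lyz1 probe sets and 5 of the macrophage markers, with 1 point per array: grey for ICAM1-negative and red for ICAM1-positive, 3 each; the grey band is the range of array medians. Lyz2 and the 2 x-type Lyz1 probe sets are higher in every ICAM1-positive array, as are Csf1r, Ctss, Adgre1 and C1qa, while the Lyz1 probe set 1450822_at and Itgam lie below the band.

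Among 20 lysozyme relatives and secreted antimicrobial genes on the array 18 were tested; 6 rose and 0 fell (median 0.36), and 2 to 4 rose with a litter left out. Defb1, a beta-defensin gene, went from 35.1 ± 13.4 to 1965 ± 289 (SD, n = 3), at least 20.2-fold. Wfdc2, which encodes a secreted protease inhibitor of glands and airways, rose by 2.42 ± 0.20 (limma adjusted p = 0.00625). Scgb3a2, a secretoglobin gene, was 6.6, 12.2 and 6.9 against 21, 109.8 and 117.7 and passed (limma adjusted p = 0.0287), with all ICAM1-negative values and that of ICAM1-positive cells of litter 1 below the array median. The lactoferrin gene Ltf, a product of serous glands and neutrophils, was 1470 ± 501 against 920.2 ± 99.4 and did not pass (limma adjusted p = 0.101). The lists of antimicrobial genes and of neutrophil markers share Ltf and Camp.

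Pigr encodes the polymeric immunoglobulin receptor, which carries IgA across gland cells into mucus. Its probe set 1455490_at was 27.7, 111.4 and 98.8 in ICAM1-negative cells and 68.8, 88.1 and 80.8 in ICAM1-positive cells. These values lay around the array medians and overlapped, and the difference of 0.23 ± 0.43 did not pass (n = 3 litters; limma adjusted p = 0.71). The other, 1450060_at, was 7.6, 56.9 and 64.8 against 49.7, 62.6 and 107.3. It was higher in 3 of 3 litters but did not pass either (1.19 ± 0.60, limma adjusted p = 0.211). Of the 8 genes of immunoglobulin transport on the array 2 rose and 0 fell (median 0.20), beside 21.3% and 22.2% of all genes. With any litter left out, 1 rose. Fcgrt, which encodes a receptor that carries IgG, rose by 3.57 ± 0.20 (limma adjusted p = 0.0042). Ccl28, a chemokine gene that draws IgA-producing cells to mucosa, rose by 1.14 ± 0.15 (limma adjusted p = 0.015, or 0.0837 without the litter block). Jchain, whose product joins IgA units, did not pass (44.4 ± 16.6 against 105.1 ± 101; limma adjusted p = 0.44). The probe sets of Igha, the IgA heavy chain gene, disagreed. The brightest, 1429381_x_at, did not pass (124.3 ± 18.7 against 235.6 ± 140; limma adjusted p = 0.17), whereas 1425763_x_at was 16.6, 73.1 and 25.5 against 252.8, 247.5 and 751.7 and rose (at least 3.74-fold; limma adjusted p = 0.0348). The other, 1421653_a_at, was 8, 11.9 and 31.1 against 176, 171 and 575.5 and rose too (at least 2.68-fold; limma adjusted p = 0.00406). Both were low in every ICAM1-negative array and high in every ICAM1-positive array; they were singled out after their values were seen.

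Obp2a encodes a lipocalin that binds odorants and other small hydrophobic molecules in nasal mucus. It was 445.5, 32.7 and 39.2 in ICAM1-negative cells. It was 43.7, 15.9 and 7.9 in ICAM1-positive cells. The sorts overlapped across litters, since ICAM1-positive cells of litter 1 exceeded ICAM1-negative cells of litters 2 and 3, but within each litter ICAM1-positive cells were lower. The log2 differences within litters were -3.35, -1.04 and -2.31, with a mean of -2.23 ± 0.52 (n = 3 litters; limma adjusted p = 0.0473). In 5 of the 6 arrays the value lay below the array median, so its size has little support; 1 array, ICAM1-negative of litter 1, carried a clear signal. Without the replicate block the standard error was 1.17 and the call was lost (adjusted p = 0.198; 20.8% of genes were lower in that fit). It was also lost with no filter (0.063), with a pseudocount of 16 (0.06), with quantile normalization (0.0537), and without litter 1 (0.12), 2 (0.054) or 3 (0.164). When values under the array median were set to it, the difference was -0.71.

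The bases before the start of Obp2a are shown as those of the 1 member that fell; capitals mark TATAAA (RefSeq, GRCm38.p6, chr2:25699824-25700073, plus strand).
Obp2a: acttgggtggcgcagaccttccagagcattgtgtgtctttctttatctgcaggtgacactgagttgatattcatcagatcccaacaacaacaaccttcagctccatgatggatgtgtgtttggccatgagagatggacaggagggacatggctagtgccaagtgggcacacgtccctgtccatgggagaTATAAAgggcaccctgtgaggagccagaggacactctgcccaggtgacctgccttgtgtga

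The TATAAA began 61 bases before the listed start, against 29 in Bpifa1 and 30 in Obp1a, whose window also held AGGAAGT at 107 and ACAAAG at 21 bases. Obp1a, the other odorant-binding protein gene among the members, was 19.8, 4.4 and 1.2 in ICAM1-negative and 4.4, 8.5 and 0.8 in ICAM1-positive cells. It exceeded the minimum intensity of 16 on 1 array and was not tested. The listed genes Obp1b, Obp2b, Obp5, Obp6, Obp7 and Obp8 had no probe set under their symbol alone, so they were not measured here. Of 10 other lipocalin genes on the array 8 stayed below the array median on all 6 arrays. Of the 7 tested, 0 rose and 1 fell, Apod, which encodes apolipoprotein D (168.9 ± 28.9 against 16.3 ± 15.7; SD, n = 3), at least 1.73-fold lower (limma adjusted p = 0.0199). That call was lost without litter 1, without litter 3 and with the probe sets of a gene averaged (0 genes lower). The second Apod probe set, 1444564_at, did not pass (limma adjusted p = 0.299), with 1 litter higher and 2 lower.

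**Figure D3:**
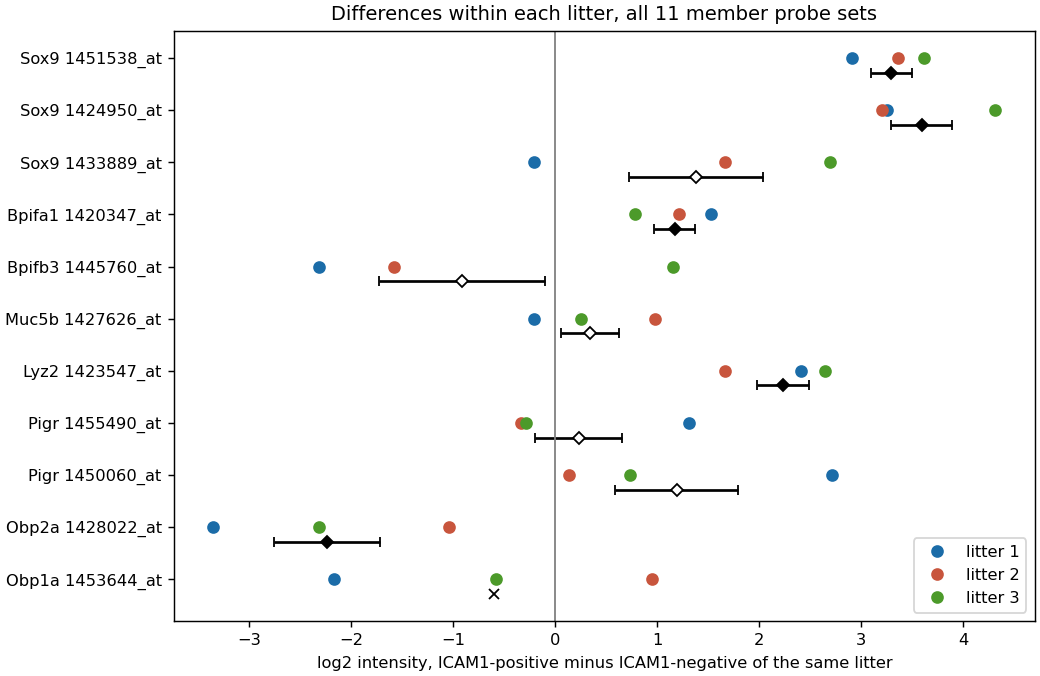
Log2 difference, ICAM1-positive minus ICAM1-negative, within each of the 3 litters (coloured points) for all 11 probe sets of the 8 genes; diamonds give the mean with the standard error of the fit, filled where limma adjusted p was under 0.05, and the cross marks the untested Obp1a. The litters agree in sign for the first 2 Sox9 probe sets, Bpifa1, Lyz2, Obp2a and Pigr 1450060_at, and they differ in sign for Bpifb3, Muc5b, Obp1a, Sox9 1433889_at and Pigr 1455490_at.

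Markers of gland cells that are not members were set beside the members. They were chosen with earlier results of these data known, so they are no independent check of the gland label. Of 6, 4 rose and 0 fell (3 to 4 rose with a litter left out), with a median of 2.10 and a summed intensity of 6746 to 9594 in ICAM1-negative and 31830 to 35007 in ICAM1-positive arrays. Aqp5, the water channel gene of serous glands, was 157, 164.3 and 357.4 against 4079, 3676 and 3947 (4.22 ± 0.31, limma adjusted p = 0.0056). Krt7, a keratin gene of glands and ducts, was 179.4, 223.3 and 77.5 against 2632, 2073 and 2203 (3.97 ± 0.38, limma adjusted p = 0.00797). Krt18 and Krt8, keratin genes that sustentacular cells express too, rose by 2.24 ± 0.13 and 1.96 ± 0.13. Krt18 alone was 2546 ± 203 against 11961 ± 83.5 (SD, n = 3), so these shared keratins hold much of the summed intensity. Sox10 did not pass, and Ascl3, a transcription factor gene of gland and microvillar progenitors, was 1258 ± 709 against 306.7 ± 133 and did not pass (limma adjusted p = 0.082, or 0.0332 without the litter block). The gland markers and members thus disagreed. Aqp5 and Krt7 were higher with Sox9, while Muc5b, Pigr, Sox10 and Ascl3 did not pass, and the mean of Ascl3 was lower in ICAM1-positive cells. Sox10, Obp1a and Obp2a lay below the array median on every ICAM1-positive array. The 11 horizontal basal cell markers had a higher median, 7.96, so a rise in this sort was not particular to gland markers. Which cells gave these differences was not tested.

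Transcription factors and machinery of secretory cells were listed as well. Of 21 on the array 20 were tested; 10 rose and 2 fell (median 0.97), and 5 to 7 rose with a litter left out. Foxa1, a forkhead factor gene of endodermal and glandular epithelia, was 88.6, 144.7 and 157.6 against 6226, 7709 and 6259 (5.73 ± 0.22, limma adjusted p = 0.00406). Its ICAM1-positive values exceeded every ICAM1-negative value. Creb3l1, a factor gene of the secretory pathway, fell from 305.6 ± 41.9 to 45.8 ± 21 (SD, n = 3), at least 3.15-fold, whereas its relative Creb3l2 rose by 2.32 ± 0.13. Ehf and Elf3, which encode epithelial ETS factors, rose by 2.58 ± 0.13 and 1.51 ± 0.13. Ern2 passed upward with all 6 values below the array median. The disulphide isomerase gene Agr2, needed for mucin folding, was 297.9 ± 96 against 307 ± 206 and did not pass (limma adjusted p = 0.732).

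Of 19 genes of water and ion transport in gland ducts and acini, 6 rose and 3 fell (median 0.61). With a litter left out 6 rose and 0 fell. Aqp5 is counted both here and among the gland markers. Car12, a carbonic anhydrase gene, was 93.1, 72.6 and 166.5 against 15947, 13569 and 16161 (7.19 ± 0.26, limma adjusted p = 0.00406). Fxyd3, which encodes a regulator of the sodium pump, rose by 6.15 ± 0.28 and the water channel gene Aqp3 by 4.71 ± 0.36. Ano1, the chloride channel gene of secretory acini, rose by 2.87 ± 0.17. Slc12a2, the chloride uptake carrier gene of secretory cells, fell by 0.88 ± 0.14 (limma adjusted p = 0.0226). Cftr did not pass (353.6 ± 232 against 533.4 ± 95.3; limma adjusted p = 0.33).

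**Figure D4:**
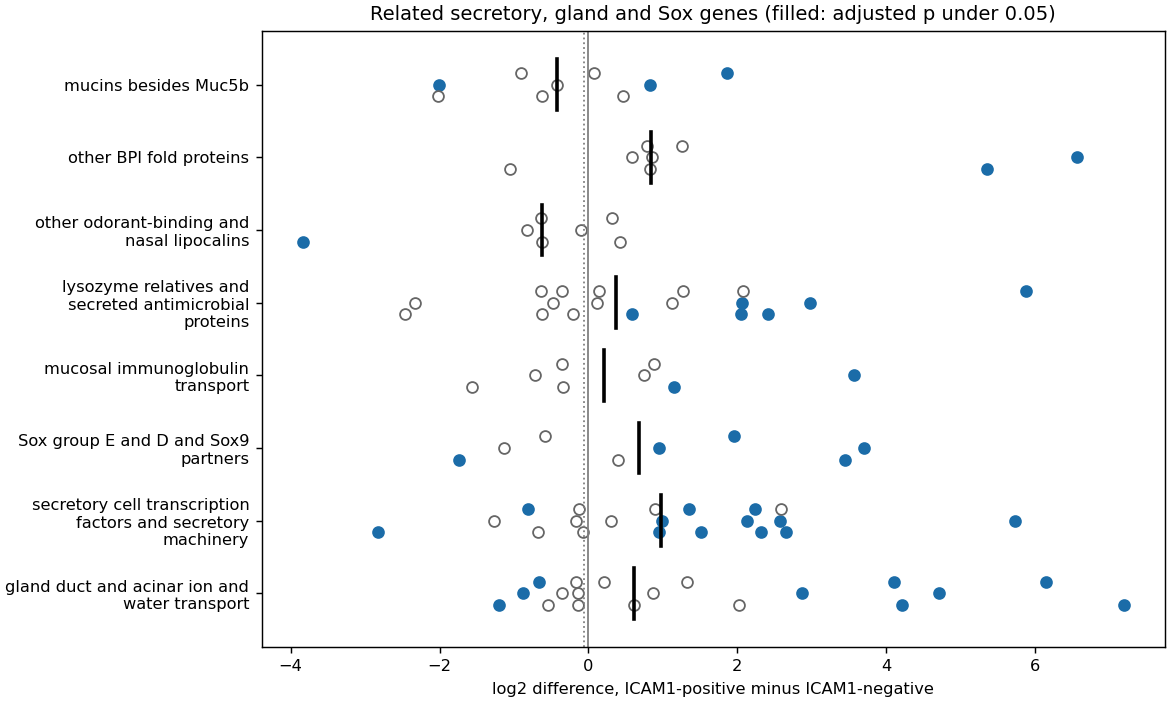
Log2 difference (ICAM1-positive minus ICAM1-negative) of each tested gene in 8 lists of genes related to the members, 1 point per gene, filled where limma adjusted p was under 0.05; the bar is the median of the list and the dotted line the median of all genes, -0.06. List medians run from -0.63 for lipocalins to 0.97 for secretory cell transcription factors and machinery, and every list holds genes that did not pass.

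Markers of other cell types that the sorts could hold moved in the same arrays. All 11 horizontal basal cell markers rose, with a summed intensity of 1304 to 1707 in ICAM1-negative and 127023 to 130632 in ICAM1-positive arrays. These 11 include Icam1, the gene of the protein used for sorting (20.8 against 6974), so its rise was set by the sort. Of 8 sustentacular cell markers 4 rose and 0 fell (summed intensity 21089 to 35581 against 55314 to 65360). Of 9 mature neuron markers 0 rose and 8 fell (82522 to 94843 against 5349 to 10665). Of 10 tested markers of respiratory and ciliated epithelium 0 rose and 7 fell, or 3 to 4 with a litter left out. Plasma and B cell markers gave 1 higher and 2 lower of 8 tested. The one that rose was Sdc1, a surface proteoglycan gene that basal keratinocytes express too. Of the plasma and B cell markers listed, 5 are also in the list of immunoglobulin transport. Of 7 ensheathing glia markers, 2 rose, or 1 with any litter left out, and 0 fell. Of 12 vascular markers 9 stayed below the array median on all 6 arrays; of the 10 tested 1 rose and 0 fell. It was Ramp2, a receptor partner gene, at 43.2, 42.5 and 66.6 against 193.3, 236.4 and 154.8 (at least 1.99-fold; limma adjusted p = 0.0213), and 0 rose without litter 1 or litter 2. The part of these cell types in the differences of Sox9, Bpifa1 and Obp2a was not tested.

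Genes with the pattern most like each member were found by the mean absolute difference over the 6 arrays after centring. For Sox9 they were Pla2g7 (0.0664 on the log2 scale) and Rasa3 (0.0771), each higher in 3 of 3 litters. Lyz2 was nearest to Lyz1 and then to 2310030G06Rik (0.0869). Bpifa1 was nearest to Stx4a (0.0759) and Map1lc3a (0.0854). The other members had near neighbours that were mostly dim: Nags (0.104) and Klra5 (0.107) for Muc5b, and Rmi2 (0.093) and H2-DMb2 (0.116) for Pigr. Bpifb3 was nearest to Adamts6 (0.251) and 4931413K12Rik (0.286), which were also higher in ICAM1-positive cells of 1 litter of 3. The pattern of Obp2a had no close match, its nearest genes being Gm15834 (0.713) and Hoxb7 (0.759). With 6 arrays and 2 sorts, genes of like difference between sorts are near by this measure.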

How the data were processed

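Expression was measured in 6 samples, 3 ICAM1-positive and 3 ICAM1-negative, on Affymetrix arrays of 45101 probe sets after 2 rounds of amplification, per the series text. The authors deposited linear intensities, per the values in the files. The labels name GCRMA, which gives log2 values, but the deposited intensities were linear, and their mean after trimming 2% at each end was 500 on every array; the program that made them is not given in the sources used here. Intensities were taken to log2 and 64 control probe sets were left out. A probe set was kept with log2 intensity above 4 on at least 3 arrays (38694 kept). Symbols came from the platform table. Of 34945 probe sets with 1 symbol, 34741 were found by Entrez ID in RefSeq.

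Differences were fitted with limma 3.58.1 (R 4.3.3, eBayes without trend) with litter as a block, because the series text gives each replicate number to 1 litter. The fit was also run on simulated data, where recovery was read on brighter probe sets only. That run does not cover dim members such as Obp2a and Pigr. Deviations of same-numbered arrays correlated at 0.0812 to 0.199, and 3 of 3 pairs correlated best with their own number. The Benjamini-Hochberg adjustment ran over all kept probe sets, with a threshold of 0.05. Errors beside a log2 difference are standard errors of the fit. With 6 arrays the precision is limited.

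A fold given as "at least" uses the dim sort raised to the array median, where it lay below it on all 3 arrays and the bright sort above it on all 3. The members and lists, and the rule for named genes (the 3 largest called differences without overlap per list, other genes named for a role in the text), were chosen with earlier results of these data known. No sequence of proteins was used here.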

Additional observations from a re-analysis of the deposited data

How the results depend on the processing

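Sox9 on its 2 brighter probe sets kept its direction and its call under every alternative run: no block, no filter, a filter at the array median, raised low intensities, a pseudocount, quantile normalization, a variance trend and each litter left out, and, for 1451538_at as the gene, averaged probe sets. The count of lower members, 1 when paired, was 0 with no replicate block, with no filter, with a pseudocount of 16, with quantile normalization and with any litter left out. It was also 0 with a filter at the array median, which left Obp2a out of the test. It was 2 when intensities under the array median were set to it, where Bpifb3 (limma adjusted p = 0.013) passed beside Obp2a and Muc5b passed upward (0.0485). No Bpifb3 value lay under the array median, so its difference stayed at -0.91, with litter 3 higher. Its standard error was 0.30 in that setting and 0.81 in the main fit, so the values of Bpifb3 gave no new support for a fall. With a litter left out, 1 to 2 members were higher, and over all probe sets 2556 to 3101 were higher and 2311 to 3022 lower, from 6899 and 7476; such fits have 4 arrays. Differences that changed sign had not passed. With low values set to the array median, Sox9 1433889_at was -0.00081 and Pigr 1455490_at was -0.11. Pigr 1455490_at ran from -0.31 to 0.51 with a litter left out. Of 104 member differences under alternatives 87 kept direction and call, 12 lost the call, 2 gained it and 3 changed sign. Without detection calls, values near the array median cannot be told from background, which limits Muc5b, Pigr, Obp2a and Obp1a. The same holds for the ICAM1-negative values of Sox9, and so for the size of its difference.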
